A study of Mus musculus with 6 samples.

Results

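Macrophage identity and phagocyte genes are the genes that mark a macrophage by its surface proteins, transcription factors, receptors and killing enzymes. A list of 44 such mouse genes was taken by gene symbol and found, all 44, among the 20007 gene identifiers of the series. Gene expression had been measured by RNA sequencing of total RNA on the BGISEQ-500 platform in 6 libraries, 2 in each of 3 groups, all from mice of the KM strain. CiSCs were MEFs that had been passaged and then exposed to small molecules, which the labels do not name, to turn them into Sertoli-like cells. MSCs were cultured Sertoli cells, the somatic cells that support germ cells in the testis tubule, from mice at postnatal day 60. MEFs were embryonic fibroblasts, labelled as 13.5 days post coitum, with an earlier embryonic age as an alternative in the growth protocol. The series was made to ask how far the induced cells resemble Sertoli cells in gene expression. No group of passaged MEFs without the compounds was analysed here, so exposure to the compounds and the extra passaging and culture cannot be told apart in CiSCs against MEFs. Age and tissue cannot be told apart in MSCs against MEFs. In CiSCs against MSCs age, tissue, the compounds and the culture before them cannot be told apart either.

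Macrophages are tissue-resident phagocytes that take up dead cells, debris and microbes. Their identity depends on the transcription factor PU.1, encoded by Spi1, and their survival on the receptor for colony-stimulating factor 1, encoded by Csf1r. They appear early in the embryo and are also resident in the interstitium of the adult testis, whereas fibroblasts and Sertoli cells lack PU.1 and most of the genes described here. Both fibroblast and Sertoli cell preparations are primary cultures, in which macrophages from the tissue can be present.

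Levels are CPM, the counts of a gene relative to the library total after scaling by the trimmed mean of M values (TMM). Library totals lay between 19294671 and 20418587 counts, and with this scaling 1 read was worth 0.0468 to 0.0543 CPM. Each gene was tested with the quasi-likelihood F test of edgeR, with p-values adjusted by Benjamini-Hochberg over all 15272 tested genes, and was called at an adjusted p under 0.05. Whether the 2 libraries of each group are separate cultures or animals is not in the labels, so p-values here reflect library-to-library spread, which may be technical. Each log2 fold change stands with its standard error after the ± sign. In RNA from a mixed culture, fewer cells of a type and less RNA per cell cannot be told apart, and this holds for every comparison here. Where groups are said not to overlap, this only describes 2 libraries a group. The share of all genes without overlap was not counted.

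The 44 genes together took 0.0171% and 0.0189% of all counts in the CiSC libraries, 0.236% and 0.224% in the MSC libraries and 1.74% and 2.71% in the MEF libraries. The groups did not overlap, and the MEF libraries were the highest and the furthest apart. The filter on low counts kept 43 of the 44 genes for testing. It required about 0.507 CPM in 2 libraries, a level that 21 of the genes reached in both CiSC libraries, 42 in both MSC libraries and 43 in both MEF libraries. Marco was the 1 gene that passed the filter through MEFs alone. Among the 43 tested genes, 42 fell and 0 rose in CiSCs against MEFs, where 21.3% of all tested genes fell and 19.6% rose. The median log2 fold change was -8.77, or -8.71 with the 5 genes that had 0 reads in CiSCs set at the bound their depth allows. The median over all tested genes was -0.002. In MSCs against MEFs 42 of the 43 genes were lower and 0 higher, where 20% of all tested genes were lower and 22.5% higher, with a median log2 fold change of -3.17 for the 43 genes. In CiSCs against MSCs 40 of the 43 were lower and 0 higher, where 25.1% of all tested genes were lower and 17.7% higher, with a median of -5.32. The comparisons share libraries, so their counts are given side by side and not as separate evidence.

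**Figure D1:**
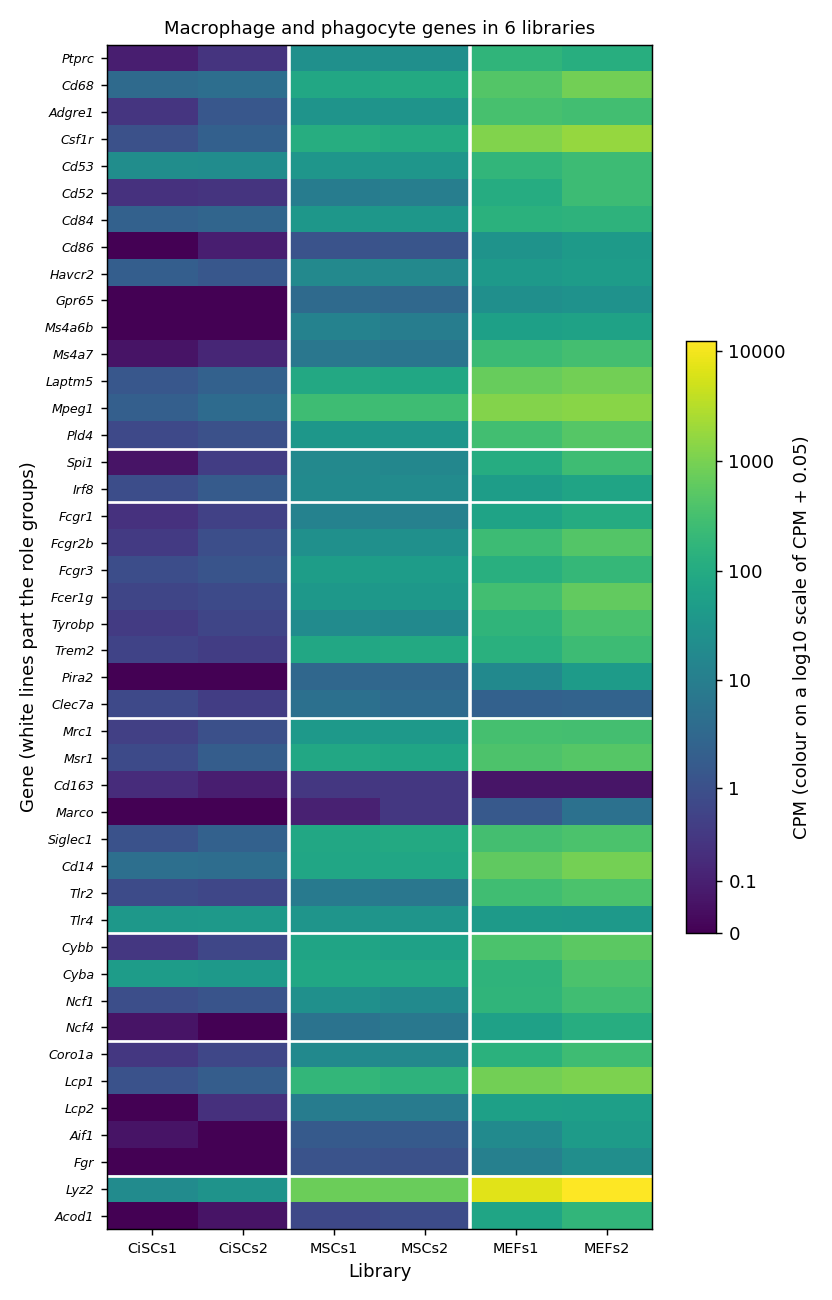
Level of each of the 44 genes (rows, grouped by role) in the 6 libraries (columns), as CPM on a colour scale that is logarithmic in CPM + 0.05. The CiSC columns are the darkest for nearly all genes, the MSC columns lie between, and the MEF columns are the brightest, while Tlr4 has a like colour in all 6 libraries and Cd163 is near 0 in all 6.

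Of the 15 surface identity and membrane proteins, all 15 fell in CiSCs against MEFs, all 15 were lower in MSCs than in MEFs and all 15 were lower in CiSCs than in MSCs. Ptprc encodes CD45, the phosphatase carried by all white blood cells. It stood at 0.0954 and 0.281 CPM in CiSCs, 26.1 and 23.9 CPM in MSCs, and 168 and 121 CPM in MEFs. The 3 groups were clearly apart, and 8 reads in all supported the CiSC value. Ptprc had a log2 fold change of -9.53 ± 0.38 in CiSCs against MEFs (edgeR adjusted p = 1.71e-05), -2.53 ± 0.24 in MSCs against MEFs (adjusted p = 0.000329) and -7.00 ± 0.37 in CiSCs against MSCs (adjusted p = 3.22e-05).

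Csf1r, the growth factor receptor on which most macrophages depend, had 1.06 and 2.18 CPM in CiSCs, 113 and 102 CPM in MSCs, and 1160 and 1744 CPM in MEFs. Its log2 fold change in CiSCs against MEFs was -9.80 ± 0.43 (edgeR adjusted p = 2.07e-05), and in MSCs against MEFs -3.76 ± 0.32 (adjusted p = 0.000225). Adgre1 encodes F4/80, the classical surface antigen of mouse macrophages. It had 0.286 and 1.43 CPM in CiSCs, 31.8 and 31.2 CPM in MSCs, and 329 and 291 CPM in MEFs. The 2 CiSC libraries differed several-fold for Adgre1, on 37 reads in all, and both lay far below every other library. The log2 fold changes of Adgre1 were -8.46 ± 0.51 in CiSCs against MEFs (edgeR adjusted p = 5.70e-05) and -3.30 ± 0.37 in MSCs against MEFs (adjusted p = 0.000747). Cd68, a lysosomal membrane glycoprotein of phagocytes, had 3.62 and 4.49 CPM in CiSCs, 85.7 and 93.7 CPM in MSCs, and 449 and 890.3 CPM in MEFs. The MEF libraries were the furthest apart for Cd68, and the lower of them still exceeded every MSC and CiSC library. In CiSCs against MEFs, Cd68 changed by a log2 fold change of -7.36 ± 0.42 (edgeR adjusted p = 4.51e-05).

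Other proteins of this group covered a wide range of levels. Mpeg1, which encodes the pore-forming protein perforin-2, had 2.15 and 3.79 CPM in CiSCs, 268 and 265 CPM in MSCs, and 1243 and 1393 CPM in MEFs. Laptm5, a lysosomal membrane protein of blood cells, had 1.38 and 2.37 CPM in CiSCs, 91.7 and 84.1 CPM in MSCs, and 693 and 889 CPM in MEFs. Pld4, a phagosome-associated nuclease of the phospholipase D family, had 0.715 and 1.03 CPM in CiSCs, 35.5 and 35 CPM in MSCs, and 296 and 468 CPM in MEFs. These 3 genes kept the order of the group. Cd86, a costimulatory ligand for T cells, had 2 reads in the CiSC libraries together, 1.17 and 1.30 CPM in MSCs, and 29.8 and 44.1 CPM in MEFs. Ms4a7, a tetraspan protein of macrophages, had 4 reads in CiSCs, 6.86 and 6.14 CPM in MSCs, and 236 and 298 CPM in MEFs. These genes were among the lowest in MSCs relative to MEFs, at 3.35% and 2.44% of the MEF level. Gpr65, a proton-sensing receptor, had 0 reads in CiSCs, 3.61 and 3.31 CPM in MSCs, and 23.8 and 28.3 CPM in MEFs. With 3 reads allowed over the CiSC libraries, Gpr65 was at least 367-fold lower in CiSCs than in MEFs. Ms4a6b also had 0 reads in CiSCs, but it belongs to a family of near-identical genes, so its value is uncertain.

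Cd53, a tetraspanin of white blood cells, fell far less than the other surface genes. It had 22.3 and 21.5 CPM in CiSCs, 34.1 and 33.7 CPM in MSCs, and 182 and 252 CPM in MEFs. Its level in CiSCs thus remained 10.1% of that in MEFs, with a 95% counting interval of 9.44% to 10.8%, which covers counting error only. The log2 fold change was -3.31 ± 0.19 in CiSCs against MEFs (edgeR adjusted p = 4.98e-05) and -0.63 ± 0.18 in CiSCs against MSCs (adjusted p = 0.0296). The call against MSCs was lost without CiSCs1, CiSCs2, MSCs1 or MSCs2 (adjusted p from 0.134 to 0.157) and with library totals in place of scaled ones (0.112). Cd84, an adhesion receptor of the SLAM family, had 2.28 and 2.86 CPM in CiSCs, 35.4 and 35.9 CPM in MSCs, and 143 and 155 CPM in MEFs. Havcr2, which encodes the inhibitory receptor TIM-3, had 1.98 and 1.40 CPM in CiSCs, 17.2 and 17.7 CPM in MSCs, and 41.6 and 48.9 CPM in MEFs. Both remained at a higher share of the MEF level than most genes of the group, Cd84 at 1.73% and Havcr2 at 3.71% in CiSCs, and Cd84 at 24.0% and Havcr2 at 38.6% in MSCs. Cd52, a small glycosylated surface peptide of white blood cells, was at 0.145% of the MEF level in CiSCs and at 5.35% in MSCs.

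Both myeloid transcription factors were lower in all 3 comparisons. Spi1 had 0.0477 and 0.421 CPM in CiSCs, 17.4 and 16.1 CPM in MSCs, and 109.6 and 260.2 CPM in MEFs. The CiSC values rested on 10 reads, and the MEF libraries differed 2.37-fold, yet no 2 groups overlapped. Spi1 had a log2 fold change of -9.58 ± 0.73 in CiSCs against MEFs (edgeR adjusted p = 0.000148), -3.47 ± 0.48 in MSCs against MEFs (adjusted p = 0.00186) and -6.11 ± 0.72 in CiSCs against MSCs (adjusted p = 0.000773). Irf8 encodes an interferon regulatory factor that works with PU.1 in the monocyte and dendritic cell lineages. It had 0.906 and 1.73 CPM in CiSCs, 19.2 and 19.8 CPM in MSCs, and 50.4 and 71.1 CPM in MEFs. Irf8 was thus at 2.18% of the MEF level in CiSCs (interval 1.64% to 2.84%), where Spi1 was at 0.128% (0.0616% to 0.236%). For Irf8 the log2 fold change was -5.52 ± 0.33 in CiSCs against MEFs (edgeR adjusted p = 5.40e-05) and -1.64 ± 0.26 in MSCs against MEFs (adjusted p = 0.00305).

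PU.1 binds DNA at GAGGAA-type sites, and together with interferon regulatory factors at composite sites. The promoters of the genes were read from RefSeq's table for the mouse build GRCm38.p6. Each window ran from 250 bases before to 50 bases after the transcription start. Of the 44 genes 33 had entries, with 40 windows in all. GAGGAA, on either strand (TTCCTC on the other), was in 23 of the 40 windows (57.5%), against 28.3% of 32851 windows in the table. The composite, GGAA and GAAA parted by any 2 bases, on either strand (TTTC and TTCC parted by 2 on the other), was in 5 of the 40 windows, all of 4 genes (12.5%), against 2.72% of the table. The matches are descriptions of these letters only, windows of 1 gene can overlap, and the motifs can overlap each other. Any link between the motifs and the changes in level was not tested. The windows below are written 5′ to 3′ along the gene, with matches to either motif in capitals. They show Cybb and Cd68, where the 2 motifs overlap, Fcgr1 with GAGGAA alone, Fcgr2b with the composite alone, and Cyba, one of the genes that fell least, with neither.
Cybb promoter (chrX:9469275-9469574, minus strand): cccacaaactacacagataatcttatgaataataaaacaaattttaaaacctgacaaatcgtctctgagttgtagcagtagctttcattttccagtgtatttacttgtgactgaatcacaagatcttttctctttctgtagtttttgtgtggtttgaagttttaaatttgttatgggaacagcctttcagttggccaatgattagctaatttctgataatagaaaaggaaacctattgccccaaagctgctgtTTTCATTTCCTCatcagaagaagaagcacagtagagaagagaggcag
Cd68 promoter (chr11:69666121-69666420, minus strand): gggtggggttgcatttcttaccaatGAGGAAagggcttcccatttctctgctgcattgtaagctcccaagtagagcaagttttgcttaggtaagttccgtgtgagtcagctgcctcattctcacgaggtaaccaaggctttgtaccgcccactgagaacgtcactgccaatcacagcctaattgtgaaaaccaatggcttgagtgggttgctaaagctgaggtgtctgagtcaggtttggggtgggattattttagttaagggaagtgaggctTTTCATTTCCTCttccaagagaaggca
Fcgr1 promoter (chr3:96293920-96294219, minus strand): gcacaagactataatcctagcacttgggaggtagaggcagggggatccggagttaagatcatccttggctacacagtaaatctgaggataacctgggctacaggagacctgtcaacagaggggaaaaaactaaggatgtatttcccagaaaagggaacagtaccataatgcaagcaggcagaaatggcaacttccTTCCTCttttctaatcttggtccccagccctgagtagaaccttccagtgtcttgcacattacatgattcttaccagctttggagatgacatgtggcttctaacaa
Fcgr2b promoter (chr1:170976022-170976321, minus strand): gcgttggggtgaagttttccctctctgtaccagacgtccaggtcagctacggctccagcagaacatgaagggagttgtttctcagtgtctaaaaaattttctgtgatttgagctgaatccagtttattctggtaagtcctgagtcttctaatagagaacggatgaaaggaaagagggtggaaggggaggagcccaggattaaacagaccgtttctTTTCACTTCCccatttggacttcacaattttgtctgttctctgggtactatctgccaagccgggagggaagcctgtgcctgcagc
Cyba promoter (chr8:122432891-122433190, minus strand): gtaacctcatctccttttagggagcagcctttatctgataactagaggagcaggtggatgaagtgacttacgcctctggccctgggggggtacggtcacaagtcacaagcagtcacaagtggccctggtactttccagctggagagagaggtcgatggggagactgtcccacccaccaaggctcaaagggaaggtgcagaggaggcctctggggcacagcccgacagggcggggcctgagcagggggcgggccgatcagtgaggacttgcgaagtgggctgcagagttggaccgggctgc
Counted from the transcription start as 1, the overlapping matches of Cybb span positions 4 to 15 and those of Cd68 positions 24 to 35, and Cd68 has a further GAGGAA from -225 to -220. The match of Fcgr1 lies at -55 to -50, and that of Fcgr2b at -35 to -26. Clec7a, which also kept a high share of its MEF level, has both motifs in its windows, and Cd53, another such gene, has GAGGAA.

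The Fc receptors and ITAM-linked receptors are antibody receptors, other surface receptors and adaptor chains, most of which signal through tyrosine motifs (ITAMs). All 8 fell in CiSCs against MEFs, 7 were lower in MSCs than in MEFs, and all 8 were lower in CiSCs than in MSCs. Tyrobp encodes DAP12, the adaptor of TREM2 and many other receptors. It had 0.382 and 0.608 CPM in CiSCs, 19.8 and 18.5 CPM in MSCs, and 169 and 353 CPM in MEFs. Fcer1g, the common gamma chain that the activating Fc receptors need, had 0.620 and 0.748 CPM in CiSCs, 37.8 and 36.8 CPM in MSCs, and 296 and 627 CPM in MEFs. Both adaptors were about 2-fold apart between the MEF libraries and close together in MSCs, and Tyrobp differed between the CiSC libraries on 21 reads in all. The log2 fold change in CiSCs against MEFs was -9.02 ± 0.51 for Tyrobp (edgeR adjusted p = 4.67e-05) and -9.38 ± 0.50 for Fcer1g (adjusted p = 3.89e-05). The MSC values against MEFs were -3.77 ± 0.37 for Tyrobp (edgeR adjusted p = 0.000394) and -3.63 ± 0.36 for Fcer1g (adjusted p = 0.000424).

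Among the antibody receptors, Fcgr1 encodes the high-affinity receptor for IgG, Fcgr2b the inhibitory one and Fcgr3 a low-affinity activating one. Fcgr1 had 0.238 and 0.514 CPM in CiSCs, 12.2 and 11.8 CPM in MSCs, and 67.3 and 104 CPM in MEFs. Fcgr2b had 0.355 and 0.953 CPM in CiSCs, 26.1 and 25 CPM in MSCs, and 246 and 441 CPM in MEFs. Fcgr3 had 0.885 and 1.20 CPM in CiSCs, 51.1 and 47.9 CPM in MSCs, and 129 and 193 CPM in MEFs. All 3 receptors followed the order CiSCs, MSCs, MEFs, but MSCs held 30.8% of the MEF level of Fcgr3 (interval 29.3% to 32.5%) and 7.46% of that of Fcgr2b (6.98% to 7.97%). Fcgr2b and Fcgr3 are close relatives in sequence, and how the authors counted shared reads is not given in the sources used here, so the split between them is uncertain. In CiSCs against MEFs the log2 fold change was -7.80 ± 0.38 for Fcgr1 (edgeR adjusted p = 2.68e-05), -9.06 ± 0.50 for Fcgr2b (adjusted p = 4.27e-05) and -7.24 ± 0.30 for Fcgr3 (adjusted p = 1.83e-05).

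Trem2, a lipid and apoptotic cell receptor that signals through DAP12, stood out in MSCs. It had 0.572 and 0.421 CPM in CiSCs, 87.7 and 93.9 CPM in MSCs, and 132 and 256 CPM in MEFs. The MSC level was 46.9% of the MEF level, whereas its adaptor Tyrobp was at 7.37%. Per kilobase of exon, a scale on which genes can be compared, Trem2 had 76.8 CPM per kb in MSCs1 and Tyrobp 35.1, whereas in MEFs1 Trem2 had 116 CPM per kb and Tyrobp 300.4. The log2 fold change of Trem2 was -8.60 ± 0.46 in CiSCs against MEFs (edgeR adjusted p = 3.70e-05) and -1.10 ± 0.30 in MSCs against MEFs (adjusted p = 0.0257). That second call was lost without MSCs1 (adjusted p = 0.151) or MSCs2 (adjusted p = 0.124). Clec7a, which encodes Dectin-1, a receptor for fungal beta-glucan, was the 1 gene of the 43 not lower in MSCs. It had 0.715 and 0.421 CPM in CiSCs, 4.94 and 3.75 CPM in MSCs, and 2.28 and 2.60 CPM in MEFs. Both MSC libraries lay above both MEF libraries, but the log2 fold change of 0.83 ± 0.32 in MSCs against MEFs did not pass (edgeR adjusted p = 0.0769). In CiSCs Clec7a fell against MEFs by -2.09 ± 0.37 on the log2 scale (edgeR adjusted p = 0.00522). Pira2, an activating immunoglobulin-like receptor with near-identical relatives, had 0 reads in CiSCs, 3.09 and 3.12 CPM in MSCs, and 18.1 and 45.0 CPM in MEFs, values that are uncertain for that reason.

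Of the 8 scavenger and pattern-recognition receptors 7 were tested, and 6 of these fell in CiSCs against MEFs, all 7 were lower in MSCs than in MEFs and 5 were lower in CiSCs than in MSCs. Mrc1 encodes the mannose receptor CD206. It had 0.477 and 0.982 CPM in CiSCs, 39.1 and 39.0 CPM in MSCs, and 319 and 303 CPM in MEFs. Msr1, the class A scavenger receptor for modified lipoproteins, had 0.763 and 1.87 CPM in CiSCs, 87.8 and 75.8 CPM in MSCs, and 386 and 473 CPM in MEFs. Siglec1, a sialic acid-binding receptor of resident macrophages, had 1.08 and 2.34 CPM in CiSCs, 84.9 and 94.6 CPM in MSCs, and 308 and 374 CPM in MEFs. All 3 were called in each comparison. In CiSCs against MEFs the log2 fold change was -8.72 ± 0.28 for Mrc1 (edgeR adjusted p = 1.49e-05) and -8.34 ± 0.39 for Msr1 (adjusted p = 2.42e-05). MSCs against MEFs gave -2.99 ± 0.20 for Mrc1 (edgeR adjusted p = 9.20e-05) and -2.39 ± 0.28 for Msr1 (adjusted p = 0.000879).

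Cd14 and Tlr4 encode parts of the endotoxin receptor, CD14 handing lipopolysaccharide to TLR4, and Tlr2 encodes a receptor for bacterial lipoproteins. Cd14 had 4.63 and 4.30 CPM in CiSCs, 79.3 and 78.2 CPM in MSCs, and 589 and 908 CPM in MEFs. Tlr2 had 0.811 and 0.655 CPM in CiSCs, 8.08 and 6.95 CPM in MSCs, and 277 and 367 CPM in MEFs. Tlr4 had 37.4 and 40.2 CPM in CiSCs, 33.1 and 32.4 CPM in MSCs, and 42.9 and 42.0 CPM in MEFs. Tlr4 thus lay within a narrow band in all 6 libraries, where Cd14 and Tlr2 spanned orders of magnitude. Tlr4 had a log2 fold change of -0.13 ± 0.12 in CiSCs against MEFs, which did not pass (edgeR adjusted p = 0.425). Its 91.4% of the MEF level in CiSCs had a counting interval of 85.3% to 97.9%. In MSCs against MEFs Tlr4 passed narrowly, at -0.37 ± 0.12 (edgeR adjusted p = 0.0488), and lost the call without CiSCs1, CiSCs2, MSCs1 or MSCs2 (adjusted p from 0.0995 to 0.238), with only the 2 groups fitted (0.104) and with either other filter on low counts (0.0532 and 0.0562). In CiSCs against MSCs it had a log2 fold change of 0.24 ± 0.12 (edgeR adjusted p = 0.159), and it passed without MEFs2 (adjusted p = 0.0416), with only the 2 groups fitted (0.0299) and with library totals in place of scaled ones (0.0183). For Cd14 the log2 fold change was -7.39 ± 0.28 in CiSCs against MEFs (edgeR adjusted p = 1.71e-05), and for Tlr2 it was -8.77 ± 0.27 (adjusted p = 1.49e-05). Tlr2 was at 2.34% of the MEF level in MSCs (interval 2.07% to 2.63%), against 10.6% for Cd14.

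The remaining 2 scavenger receptors were scarce. Marco, a collagen-domain scavenger receptor, had 0 reads in CiSCs, 8 reads (0.106 and 0.326 CPM) in MSCs, and 1.57 and 5.04 CPM in MEFs. It was at least 46.3-fold lower in CiSCs than in MEFs, and in CiSCs against MSCs it did not pass (edgeR adjusted p = 0.106), although it did without MEFs1 (adjusted p = 0.0254) or MEFs2 (adjusted p = 0.0381). Its call in MSCs against MEFs (edgeR adjusted p = 0.0156) was lost without MSCs1 (adjusted p = 0.113) or MSCs2 (adjusted p = 0.0690). Cd163, the receptor for haemoglobin-haptoglobin complexes, had 4 and 2 reads in the CiSC libraries, 6 and 6 in the MSC libraries, and 1 and 1 in the MEF libraries, and was not tested. Cd163 was therefore near the limit of detection in every library, the MEF libraries included.

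The phagocyte NADPH oxidase makes superoxide at the phagosome. Cybb encodes its catalytic membrane subunit gp91phox, Cyba the membrane partner p22phox, and Ncf1 and Ncf4 the cytosolic subunits p47phox and p40phox. All 4 fell in CiSCs against MEFs and were lower in MSCs than in MEFs, and 3 were lower in CiSCs than in MSCs. Cybb had 0.334 and 0.655 CPM in CiSCs, 72.2 and 61.9 CPM in MSCs, and 368 and 548 CPM in MEFs. Cyba had 48.3 and 39.9 CPM in CiSCs, 81.6 and 86.0 CPM in MSCs, and 166 and 373 CPM in MEFs. The membrane partners thus parted in CiSCs, where Cybb was at 0.109% of the MEF level (interval 0.0672% to 0.166%) and Cyba at 16.4% (15.6% to 17.3%). As background, p22phox is also the partner of other NADPH oxidases in many cell types. The log2 fold change of Cybb was -9.83 ± 0.38 in CiSCs against MEFs (edgeR adjusted p = 1.71e-05) and -2.77 ± 0.25 in MSCs against MEFs (adjusted p = 0.000304). That of Cyba was -2.61 ± 0.37 in CiSCs against MEFs (edgeR adjusted p = 0.00216) and -1.68 ± 0.36 in MSCs against MEFs (adjusted p = 0.0107), a call that was lost without MSCs1 (adjusted p = 0.0854) or MSCs2 (adjusted p = 0.0758). Cyba in CiSCs against MSCs had -0.93 ± 0.36 and did not pass (edgeR adjusted p = 0.0795), although it did without MEFs1 (adjusted p = 0.000213) or MEFs2 (adjusted p = 0.000251) and by DESeq2 (adjusted p = 0.0308). Ncf1 had 0.944 and 1.20 CPM in CiSCs, 25 and 19.1 CPM in MSCs, and 169.7 and 273 CPM in MEFs. Its log2 fold change was -7.66 ± 0.36 in CiSCs against MEFs (edgeR adjusted p = 2.52e-05) and -3.33 ± 0.28 in MSCs against MEFs (adjusted p = 0.000216). Ncf4 had 1 read in the CiSC libraries together, 5.58 and 7.11 CPM in MSCs, and 62.1 and 113 CPM in MEFs.

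All 5 cytoskeletal and signalling genes were lower in all 3 comparisons. Lcp1 encodes L-plastin, the actin-bundling protein of blood cells. It had 1.10 and 1.92 CPM in CiSCs, 184 and 155 CPM in MSCs, and 868 and 1082 CPM in MEFs. Coro1a, an actin-binding coronin of white blood cells, had 0.334 and 0.655 CPM in CiSCs, 18.5 and 16.7 CPM in MSCs, and 142 and 264 CPM in MEFs. Lcp1 was at 17.4% of the MEF level in MSCs and Coro1a at 8.70%, whereas in CiSCs both were under 1%. The log2 fold change in CiSCs against MEFs was -9.33 ± 0.33 for Lcp1 (edgeR adjusted p = 1.49e-05) and -8.66 ± 0.47 for Coro1a (adjusted p = 4.04e-05). Lcp2, the adaptor SLP-76, had 5 reads in CiSCs, 9.41 and 8.91 CPM in MSCs, and 58.9 and 55.6 CPM in MEFs. Aif1, which encodes the actin-bundling protein IBA1, had 1 read in CiSCs, 1.65 and 1.63 CPM in MSCs, and 19.1 and 46.9 CPM in MEFs. Fgr, a Src-family kinase, had 0 reads in CiSCs, 1.17 and 1.03 CPM in MSCs, and 11 and 23.2 CPM in MEFs. Lcp2 was even between the MEF libraries, while Aif1 and Fgr were more than 2-fold higher in MEFs2.

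The 2 effector enzymes were at opposite ends of abundance. Lyz2, the lysozyme of phagocytes, had 20.3 and 30.3 CPM in CiSCs, 782 and 718 CPM in MSCs, and 7158 and 12493 CPM in MEFs. Per kilobase of exon it was the most abundant of the 44 genes in both MEF libraries, at 5439 and 9493 CPM per kb, followed by Fcer1g at 395 and 838. The Lyz2 levels of the groups did not overlap. Its log2 fold change was -8.60 ± 0.43 in CiSCs against MEFs (edgeR adjusted p = 2.89e-05) and -3.71 ± 0.34 in MSCs against MEFs (adjusted p = 0.000308). Acod1 encodes the enzyme that makes itaconate in activated macrophages. It had 1 read in the CiSC libraries, 0.691 and 0.869 CPM in MSCs, and 73.6 and 175 CPM in MEFs. Acod1 was the lowest of the tested genes in MSCs relative to MEFs, at 0.629% (interval 0.421% to 0.905%), and its log2 fold change there was -7.31 ± 0.56 (edgeR adjusted p = 0.000153). In CiSCs against MSCs the Acod1 call (-4.71 ± 1.36, edgeR adjusted p = 0.0314) was lost without CiSCs1, CiSCs2, MSCs1 or MSCs2 (adjusted p from 0.0709 to 0.116).

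Whether the genes were lost by a common factor or by factors of their own was read from the level of each gene as a percentage of its MEF level. In CiSCs the median over the 43 tested genes was 0.227%, with the middle 50% of genes between 0.120% and 0.494%, and 36 of the 43 were under 1%. Of the 38 genes with reads in CiSCs, 21 had a 95% interval of the fitted change, from the approximate standard error, that included the median. Another 13 lay above it, namely Cd68, Cd53, Cd84, Havcr2, Irf8, Fcgr1, Fcgr3, Clec7a, Siglec1, Cd14, Tlr4, Cyba and Ncf1, and 4 lay below it, Ms4a7, Cybb, Ncf4 and Acod1. Between 1% and 5% stood Cd84, Havcr2 and Irf8, and above 5% stood Cd53, Cyba, Clec7a and Tlr4. The genes with reads that were under 1% ran from 0.0191% for Acod1 to 0.647% for Fcgr3, and an interval that includes the median does not show a common level.

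In MSCs the median was 11.1%, with the middle 50% of genes between 7.44% and 18.5%. Intervals included the median for 23 of the 43 genes, 15 lay above it and 5, Cd52, Cd86, Ms4a7, Tlr2 and Acod1, lay below it. Above 20% stood Cd84, Havcr2, Mpeg1, Irf8, Fcgr3, Trem2, Clec7a, Siglec1, Tlr4 and Cyba, and under 5% stood Cd86, Ms4a7, Tlr2, Aif1 and Acod1. Cd53, Cd84, Havcr2, Irf8, Fcgr3, Clec7a, Siglec1, Tlr4 and Cyba had intervals wholly above the median in both CiSCs and MSCs. Both percentages share the MEF libraries as their denominator, so this overlap is no separate evidence.

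**Figure D2:**
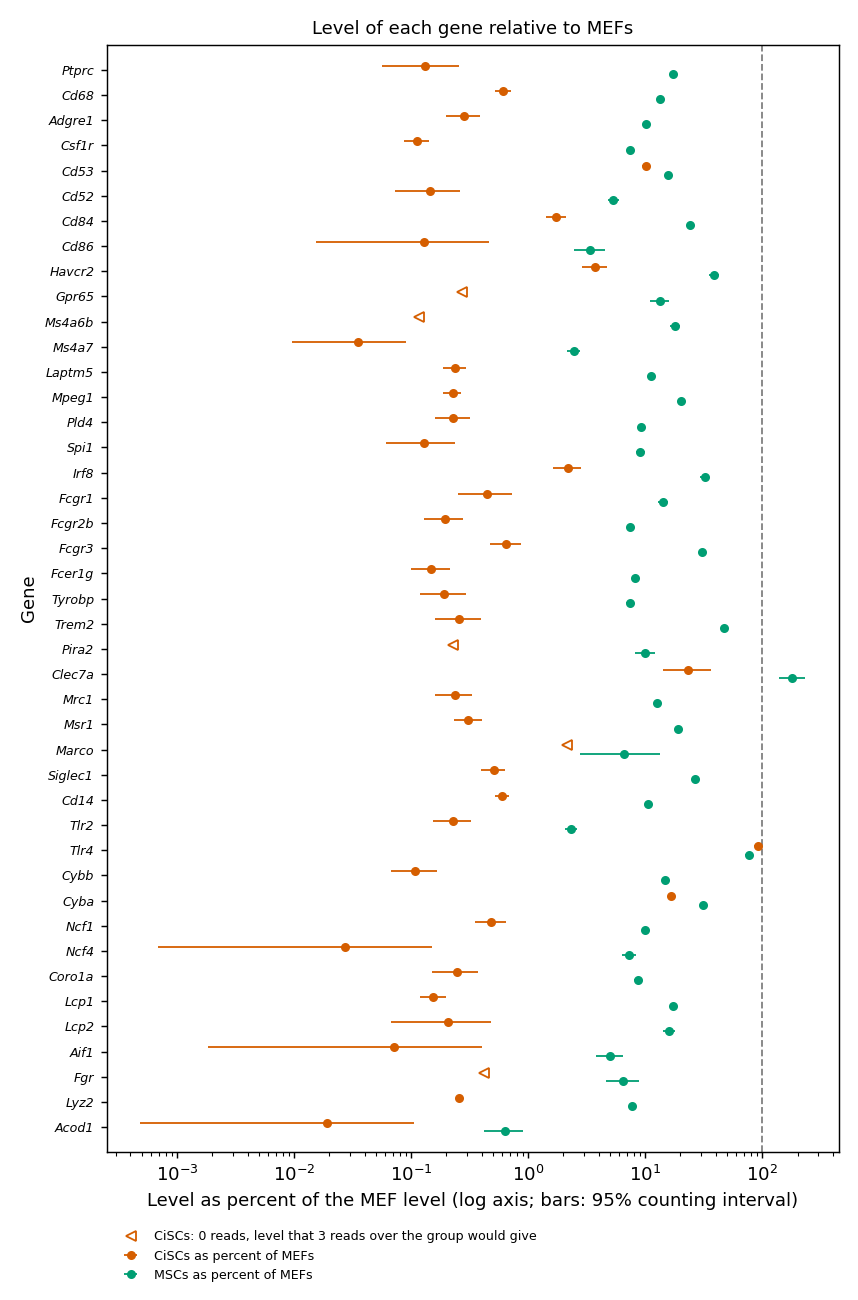
Level of each of the 43 tested genes in CiSCs (orange) and MSCs (green) as a percentage of its level in MEFs, on a log axis, with 95% counting intervals as bars; open triangles mark genes with 0 reads in CiSCs at the level that 3 reads over the group would give. The CiSC points have a median of 0.227% and the MSC points one of 11.1%, while Tlr4 lies close to the dashed line at 100% in both.

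**Figure D3:**
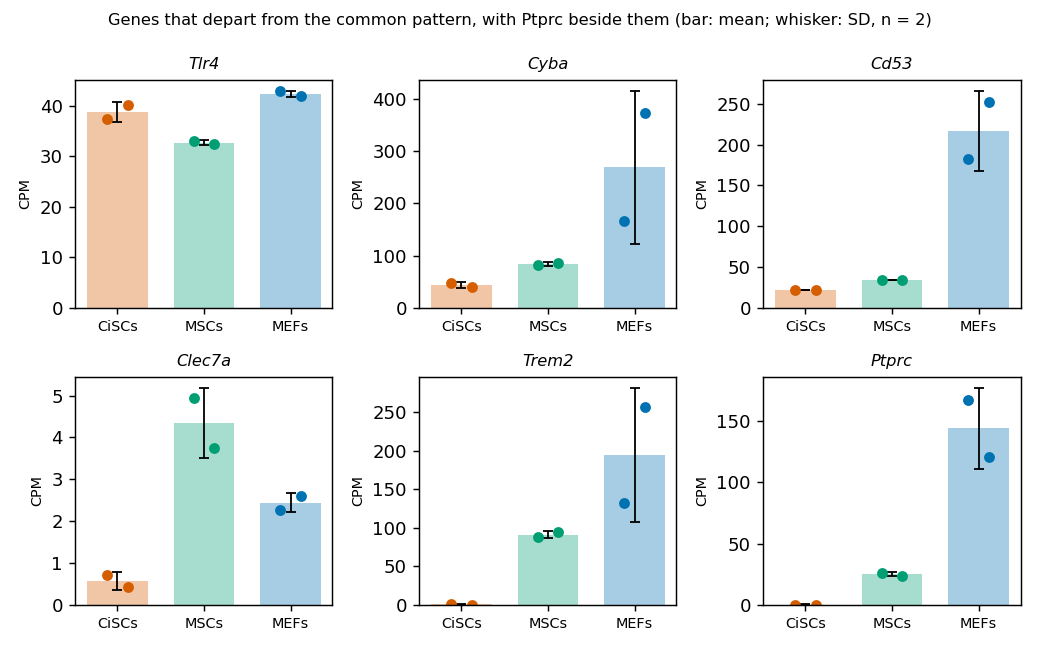
CPM of Tlr4, Cyba, Cd53, Clec7a and Trem2, with Ptprc beside them, in CiSCs, MSCs and MEFs; points are libraries, bars are means and whiskers are SD (n = 2). Tlr4 is nearly level across the groups, Cyba and Cd53 keep a visible bar in CiSCs, Clec7a is highest in MSCs, and Ptprc has almost no bar in CiSCs.

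The 2 MEF libraries were not equal for these genes. The median log2 ratio of MEFs1 over MEFs2 was -0.58, a 1.5-fold lower level in MEFs1, whereas over all 14777 genes compared the median was -0.009. In MEFs1, 21 of the 43 genes were at least 1.5-fold lower than in MEFs2, where 14.1% of all genes compared were. At least 2-fold lower were 10 of them, Cd52, Spi1, Fcer1g, Tyrobp, Pira2, Marco, Cyba, Aif1, Fgr and Acod1. Higher in MEFs1 were Ptprc, Adgre1, Mrc1, Tlr4 and Lcp2. The ratios ranged from a 3.22-fold higher level in MEFs2 for Marco to the reverse for Ptprc, with 168 CPM in MEFs1 and 121 CPM in MEFs2. These are ratios of 1 library to 1 library, with no test. Without MEFs2 the fold change of the 10 genes at least 2-fold apart moved by over 1.5 times in CiSCs against MEFs and in MSCs against MEFs, and without MEFs1 that of Marco did. No call in CiSCs against MEFs changed without either MEF library, with 42 genes lower each time.

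**Figure D4:**
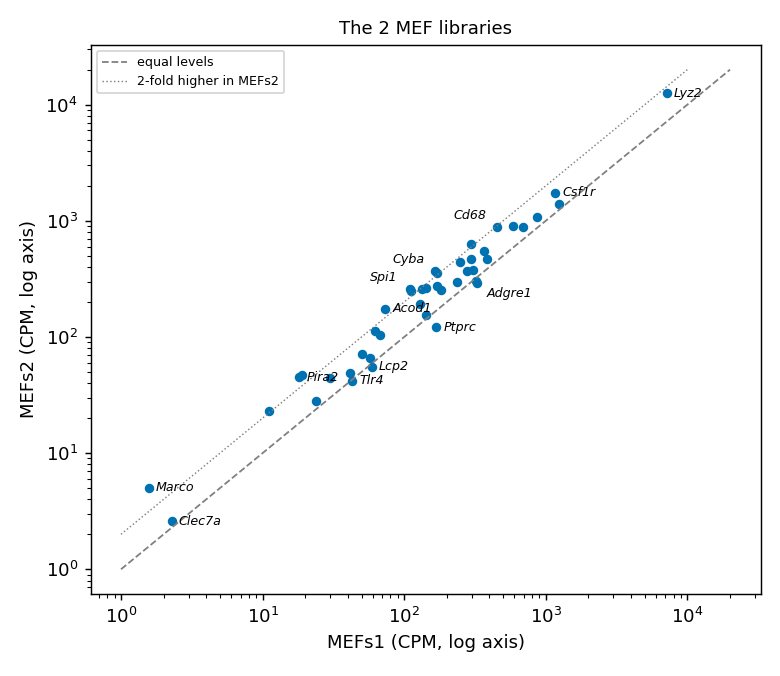
Level of the 43 tested genes in MEFs1 (x axis) against MEFs2 (y axis), in CPM on log axes; the dashed line marks equal levels and the dotted line a 2-fold higher level in MEFs2. Most points lie above the dashed line, Marco, Spi1, Cyba, Acod1 and Pira2 lie above the dotted line, and Ptprc lies below the dashed line.

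The CiSC libraries also differed. Of 33 genes with reads in both, 26 were higher in CiSCs2 than in CiSCs1, and 17 were at least 1.5-fold higher, where 4.87% of all genes compared were. The median was 1.59-fold. Only 21 of the 44 genes reached the filter level of about 0.507 CPM in both CiSC libraries, and counting error adds to gaps at few reads. The 4.87% was not taken over genes of like level. The share of all genes that were higher in CiSCs2 was not counted. Leaving out CiSCs2 moved 17 fold changes against MEFs by over 1.5 times, those of Ptprc, Adgre1, Csf1r, Cd86, Ms4a7, Spi1, Fcgr1, Fcgr2b, Mrc1, Msr1, Siglec1, Cybb, Ncf4, Coro1a, Lcp2, Aif1 and Acod1. Leaving out CiSCs1 moved 7, those of Adgre1, Cd86, Spi1, Ncf4, Lcp2, Aif1 and Acod1. Adgre1 changed from MEFs by -10.08 on the log2 scale without CiSCs2 and by -7.75 without CiSCs1, and Spi1 by -11.77 without CiSCs2 and by -8.77 without CiSCs1. All 42 calls against MEFs held without either library. Against MSCs, 15 fold changes moved by over 1.5 times without CiSCs2, those of the same genes less Cybb and Coro1a, and the same 7 moved without CiSCs1. For Spi1 the log2 fold change against MSCs was -8.27 without CiSCs2 and -5.28 without CiSCs1. That of Marco moved by over 1.5 times without MSCs1 or MSCs2, in CiSCs against MSCs and in MSCs against MEFs. The MSC libraries were close, with Marco the 1 gene of 43 at least 1.5-fold apart, where 7.74% of all genes compared were, and a median difference of 1.09-fold.

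Other macrophage genes outside the 44 mostly moved the same way. Of 36 tested, 34 fell, 1 rose and 1 did not pass in CiSCs against MEFs. Itgam, the CD11b integrin chain, had 1.67 and 2.34 CPM in CiSCs, 96.6 and 98.3 CPM in MSCs, and 551 and 723 CPM in MEFs. Stab1, a scavenger receptor, had 2.09 and 2.56 CPM in CiSCs, 72.5 and 66.4 CPM in MSCs, and 654 and 878 CPM in MEFs. Cd180, a Toll-like surface receptor, and Csf2rb, a cytokine receptor chain, likewise fell, with a log2 fold change of -8.88 ± 0.32 for Cd180 (edgeR adjusted p = 1.49e-05) and -7.66 ± 0.26 for Csf2rb (adjusted p = 1.49e-05). In MSCs against MEFs 29 of the 36 were lower, 4 were higher and 3 did not pass, and in CiSCs against MSCs 34 were lower and 2 did not pass. The 4 higher in MSCs were Cd36, Arg1, Itgax and Vsig4. Cd36, a fatty acid and scavenger receptor that other cell types also make, had 0.477 and 0.281 CPM in CiSCs, 82.7 and 71.1 CPM in MSCs, and 5.87 and 5.09 CPM in MEFs. Arg1, arginase 1, had 4.34 and 5.14 CPM in CiSCs, 28.7 and 36.9 CPM in MSCs, and 0.354 and 0.312 CPM in MEFs, and was the 1 gene of the list that rose in CiSCs against MEFs (log2 fold change 3.81 ± 0.29, edgeR adjusted p = 0.000149). Itgax, the CD11c integrin chain, had 0.170 and 0.0468 CPM in CiSCs, 12.8 and 12.8 CPM in MSCs, and 6.66 and 5.18 CPM in MEFs, and its call in MSCs was lost without MSCs1 (adjusted p = 0.109) or MSCs2 (adjusted p = 0.108). Vsig4, a complement receptor of resident macrophages, had 0 reads in CiSCs and in MEFs and 2.55 and 3.75 CPM in MSCs.

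Myeloid transcription factors outside the 44 had smaller median changes. Of 11 other myeloid transcription factors tested, 10 fell and 1, Cebpa, did not pass in CiSCs against MEFs, with a median log2 fold change of -2.43. Ikzf1, the lymphoid and myeloid factor Ikaros, had 0.238 and 0.187 CPM in CiSCs, 7.55 and 5.21 CPM in MSCs, and 36.4 and 39.9 CPM in MEFs. Irf5, an interferon regulatory factor of macrophages, had 2.85 and 3.04 CPM in CiSCs, 20.1 and 20.5 CPM in MSCs, and 44.4 and 47.0 CPM in MEFs. Runx1, a blood-lineage factor, had 20.3 and 17.4 CPM in CiSCs, 81.0 and 85.1 CPM in MSCs, and 90.2 and 114 CPM in MEFs. Runx1 kept a larger share than Ikzf1 in CiSCs, and in MSCs against MEFs it did not pass (edgeR adjusted p = 0.186) unless MEFs1 was left out (0.00728). In MSCs against MEFs 6 of the 11 were lower and 5 did not pass, Maf among them, with 68.6 and 64.9 CPM in MSCs and 54.5 and 71.1 CPM in MEFs. In CiSCs against MSCs 8 were lower, 2 did not pass and 1 was higher, Bhlhe41, at 20.7 and 20.3 CPM in CiSCs and 11.7 and 11.6 CPM in MSCs, a call lost without CiSCs1, CiSCs2, MSCs1 or MSCs2 (adjusted p from 0.0527 to 0.0713). Of 15 other oxidase and ITAM signalling genes, 14 fell and 1 did not pass in CiSCs against MEFs, and the counts were 14 lower and 1 not passed in MSCs against MEFs and in CiSCs against MSCs. Syk, the kinase that ITAMs recruit, had 0.954 and 0.935 CPM in CiSCs, 19.8 and 20.5 CPM in MSCs, and 96.8 and 122 CPM in MEFs. Lyn, a Src-family kinase, had 17.3 and 18.4 CPM in CiSCs, 36.4 and 32.6 CPM in MSCs, and 128 and 133 CPM in MEFs. Rac1, the broadly expressed GTPase, did not pass in any comparison, with 417 and 401 CPM in CiSCs, 453 and 449 CPM in MSCs, and 476 and 441 CPM in MEFs.

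Among 15 Toll-like receptors and their signalling partners, 9 fell and 6 did not pass in CiSCs against MEFs. Tlr7, an endosomal receptor for single-stranded RNA, had 0.191 and 0.0935 CPM in CiSCs, 14.9 and 11.5 CPM in MSCs, and 105 and 85.4 CPM in MEFs. Tlr13, a receptor for bacterial ribosomal RNA, had 0.477 and 0.281 CPM in CiSCs, 31.0 and 31.1 CPM in MSCs, and 117 and 105 CPM in MEFs. Those that did not pass were Ly96, Myd88, Tirap, Ticam1, Irak4 and Traf6, the co-receptor of Tlr4 and the shared adaptors and kinases. Ly96 had 6.39 and 5.38 CPM in CiSCs, 4.62 and 5.00 CPM in MSCs, and 6.07 and 9.20 CPM in MEFs. Myd88 had 36.3 and 38.3 CPM in CiSCs, 31.8 and 35.8 CPM in MSCs, and 43.5 and 42.5 CPM in MEFs. Neither Tlr4 nor Ly96, its co-receptor, passed in CiSCs against MEFs, which does not show that their levels were equal. Of the 15, in MSCs against MEFs, 6 were lower, 8 did not pass and 1, Tlr3, a receptor for double-stranded RNA, was higher, at 15.1 and 16.5 CPM in MSCs and 10.9 and 9.51 CPM in MEFs. The Tlr3 call was lost without CiSCs1, CiSCs2, MSCs1 or MSCs2 (adjusted p from 0.0700 to 0.160) and with only the 2 groups fitted (0.0625). Against MSCs, 9 of the 15 in CiSCs passed as lower, and 6 did not pass.

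The ligands of the Csf1r protein were measured as well. Csf1 had 228 and 219.8 CPM in CiSCs, 1095 and 1023 CPM in MSCs, and 1128 and 698 CPM in MEFs. CiSCs were below all other libraries, with a log2 fold change of -2.03 ± 0.24 against MEFs (edgeR adjusted p = 0.000952), and MSCs did not pass against MEFs (0.21 ± 0.23, adjusted p = 0.485). Without MEFs1 the MSC level of Csf1 passed as higher (adjusted p = 0.0023), and without MEFs2 its log2 fold change was -0.09. Il34, the other ligand, had 0.275 and 0.327 CPM in CiSCs, 3.52 and 6.26 CPM in MSCs, and 1.32 and 2.04 CPM in MEFs. It fell in CiSCs (log2 fold change -2.42 ± 0.49, edgeR adjusted p = 0.00922) and was higher in MSCs than in MEFs (1.54 ± 0.39, adjusted p = 0.0206). The Il34 calls were lost in CiSCs without CiSCs1 (adjusted p = 0.0636) or CiSCs2 (0.0547), and in MSCs without MSCs2 (0.164). Csf2 and Csf3 were too low to be tested.

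Marker lists of other blood cells did not all keep the order of the macrophage genes. The summed level of 11 measured neutrophil markers was 3.43 and 2.96 CPM in CiSCs, 10.8 and 12.1 CPM in MSCs, and 21.4 and 47.1 CPM in MEFs, and between 4 and 6 of the 11 had 0 reads in a library. Of the 5 tested, 3 fell in CiSCs against MEFs, Csf3r, S100a8 and Camp, the last with 0 reads in CiSCs. In MSCs against MEFs 2 of the 5 were higher, Camp among them, 1 was lower and 2 did not pass. The fall of Camp was lost without CiSCs1 (adjusted p = 0.0526) or CiSCs2 (0.0537), and that of S100a8 without CiSCs1, MSCs1, MSCs2 or MEFs2 (0.0632 to 0.0931). Csf3r, the neutrophil growth factor receptor, which monocytes carry too, had 0.898 and 0.488 CPM in CiSCs, 1.64 and 2.34 CPM in MSCs, and 19.0 and 40.1 CPM in MEFs. Summed T and NK cell markers lay between 2.49 and 4.61 CPM in all 6 libraries, and summed B cell markers between 0.327 and 0.706 CPM, with none of the 6 B cell markers tested. Summed mast cell and basophil markers were 6.15 and 5.52 CPM in CiSCs, 18.6 and 21.3 CPM in MSCs, and 1.16 and 0.624 CPM in MEFs. Those in CiSCs came mostly from Cma1, at 6.10 and 5.05 CPM, and those in MSCs mostly from Hdc, at 18.6 and 21.3 CPM. Of the 3 tested, 1 was higher, 1 lower and 1 not passed in each of the 3 comparisons. Ms4a2 was lower than in MEFs in CiSCs (edgeR adjusted p = 0.0117) and in MSCs (0.0127), with 0 reads in both of these groups. Its fitted log2 fold change, -6.84 in CiSCs and -6.84 in MSCs, is therefore not a measured fold. Both Ms4a2 calls rested on low levels and were lost at an adjusted p under 0.01. Dendritic cell markers summed to 31.2 and 30.9 CPM in CiSCs, 14.1 and 12.7 CPM in MSCs, and 2.78 and 1.75 CPM in MEFs, in CiSCs and MSCs nearly all from Zbtb46, which endothelial cells also express. Of the 3 dendritic cell markers tested, 2 rose and 1 did not pass in CiSCs against MEFs, and likewise against MSCs. Zbtb46 had 29.99 and 29.9 CPM in CiSCs, 13.1 and 11.6 CPM in MSCs, and 1.35 and 0.692 CPM in MEFs, with a log2 fold change of 4.86 ± 0.30 in CiSCs against MEFs (edgeR adjusted p = 6.30e-05) and 1.28 ± 0.24 against MSCs (adjusted p = 0.00559, lost without MSCs2, 0.066). Clec9a, a receptor for dead cells on dendritic cells, had 26 reads in CiSCs, 1 in MSCs and 2 in MEFs. Its call as higher in CiSCs against MEFs (edgeR adjusted p = 0.0235) was lost without CiSCs1, CiSCs2 or MEFs2 (0.0961 to 0.137) and by DESeq2 (0.147), and that against MSCs (0.0104) without CiSCs1 (0.0692) or MSCs1 (0.0823) and by DESeq2 (0.0639). Of the 3 T and NK cell markers tested, 1 rose, 1 fell and 1 did not pass in CiSCs against MEFs. Cd8a, a T cell co-receptor chain, was the one that rose, at 1.23 and 1.19 CPM in CiSCs, 0.875 and 0.724 CPM in MSCs, and 0.354 and 0.263 CPM in MEFs (edgeR adjusted p = 0.0105, lost without CiSCs1, 0.0731, or CiSCs2, 0.0721). Cd5, a T cell surface receptor, fell, with 1 read in CiSCs, 3 in MSCs and 41 in MEFs (edgeR adjusted p = 0.0108, lost without CiSCs1, 0.0517, or CiSCs2, 0.0832). Erythroid markers summed to 3.42 to 6.65 CPM in all 6 libraries.

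The labelled cell types were checked against their markers. All 12 fibroblast markers were measured, and their sum was 34665 and 35189 CPM in CiSCs, 44991 and 47440 CPM in MSCs, and 36526 and 34989 CPM in MEFs, so the sum did not follow the macrophage genes. In CiSCs against MEFs 4 of the 12 rose, 3 fell and 5 did not pass. In MSCs against MEFs 3 were higher, 6 lower and 3 did not pass, and in CiSCs against MSCs 6 were higher, 2 lower and 4 did not pass. The 2 genes given next do not stand for the list in MSCs, where the sum was the highest. Fap, a fibroblast surface protease, had 235 and 229.9 CPM in CiSCs, 5.69 and 6.14 CPM in MSCs, and 6.02 and 4.10 CPM in MEFs, while Thy1, a fibroblast surface protein, had 145 and 132 CPM in CiSCs, 4.15 and 4.29 CPM in MSCs, and 867 and 687 CPM in MEFs. Of 10 tested Sertoli cell markers, 9 were higher and 1 did not pass in MSCs against MEFs. In CiSCs against MEFs 3 rose, 1 fell and 6 did not pass, and against MSCs 9 were lower in CiSCs and 1 did not pass. The summed level of the 12 measured Sertoli cell markers was 4853 and 4124 CPM in CiSCs, 6022 and 8914 CPM in MSCs, and 195 and 228 CPM in MEFs. Such a sum can rest on few abundant genes. In CiSCs against MEFs the median log2 fold change of the 10 tested was 1.30, or 0.365 with the 1 gene at 0 reads set at its bound. Cldn11, the claudin of the Sertoli cell barrier, had 1.00 and 1.17 CPM in CiSCs, 263 and 373 CPM in MSCs, and 0.101 and 0.0520 CPM in MEFs. The MSC libraries thus carried their defining markers together with the macrophage genes at a median of 11.1% of the MEF level, and the part of other cells in the cultures was not tested.

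**Figure D5:**
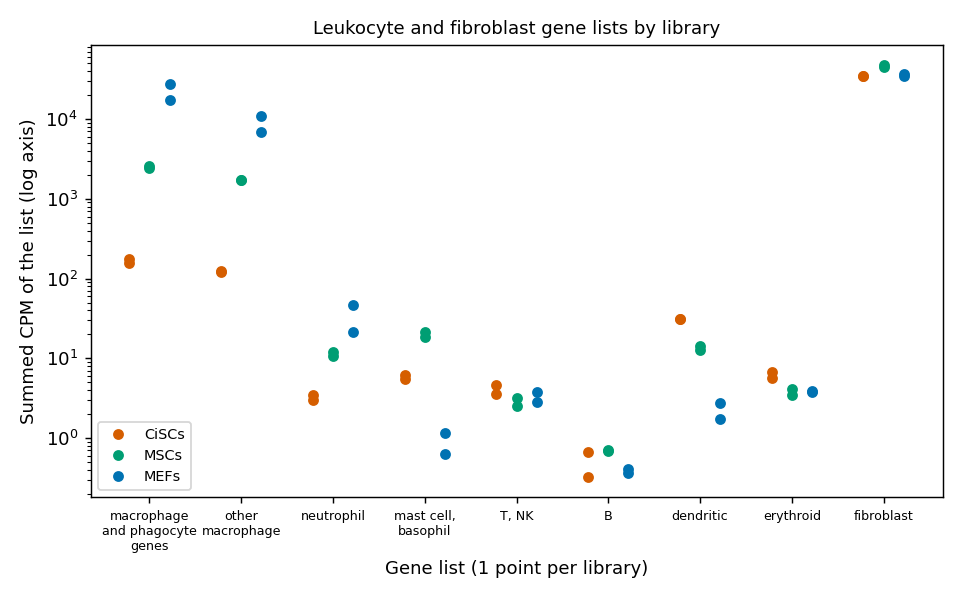
Summed CPM (log axis) of the macrophage and phagocyte genes, of other macrophage genes, of 6 lists for other blood cells and of fibroblast markers, 1 point per library, in CiSCs, MSCs and MEFs. In both macrophage lists the CiSC libraries are the lowest, the MSC libraries lie between and the MEF libraries are the highest, with no overlap, whereas the T and NK cell, B cell and erythroid lists stay under 10 CPM and the fibroblast list lies near the top in every library.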

How the data were processed

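Total RNA of 6 mouse libraries, 2 each of CiSCs, MSCs and MEFs, was sequenced on the BGISEQ-500 platform, per the labels' protocols. The authors deposited expected counts per gene for each library, that is, estimated read counts of which 42.0% to 43.8% were not whole (tolerance 1e-09). Per the submitters' processing notes, HISAT and the build mm9 were used. The counting program, its annotation and the strand of the libraries are not given in the sources used here, so reads of overlapping or antisense genes cannot be told apart.

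Identifiers were matched to symbols with a RefSeq table of GRCm38.p6 (18891 of 20007). After rounding, edgeR 4.0.16 (R 4.3.3) was run with filterByExpr, TMM scaling and a quasi-likelihood fit of 3 group means to all 6 libraries (3 residual degrees of freedom), with two-sided tests. Levels in percent of MEFs carry exact binomial 95% intervals on summed reads, and a group with 0 reads was set at 3 reads, or 0.0708 CPM in CiSCs, 0.0806 CPM in MSCs and 0.0769 CPM in MEFs, both for counting error only. Lengths for CPM per kb are exon unions from a GENCODE annotation. The 44 genes, their role groups and the 13 other lists were chosen with earlier results of these data known, and some list members were not analysed here. All 44 genes could be named, and of each other list up to 4 genes with the smallest adjusted p in CiSCs against MEFs, any that moved the other way, or the 2 most abundant where none passed. Genes named outside that rule (Cebpa, Rac1, Hdc and the Toll-like receptor partners that did not pass) were chosen after their values were seen.

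Alternatives were leaving out each library, a replicate block, only the 2 groups compared, other filters and scalings, DESeq2 1.42.0, an adjusted p under 0.01 and a test against a fold of 1.5. TMM without myeloid and leukocyte genes, counts not rounded and a crossed block were chosen after seeing the data. The code of the fit was also run on simulated counts, drawn from the kind of model that the fit assumes. Such a run cannot show how well that model fits these libraries.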

Additional observations from a re-analysis of the deposited data

How the results depend on the processing

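The counts of the 44 genes called, in either direction, were stable. All genes called were lower, except Tlr4 in CiSCs against MSCs, which was higher in the settings where it passed. In CiSCs against MEFs 42 were lower in every alternative except the filter of at least 5 CPM in 2 libraries, which tested fewer genes and gave 40. In MSCs against MEFs the counts ran from 38 to 42, and in CiSCs against MSCs from 38 to 43, with no change of direction for any of the 43 tested. With the replicate block 42 genes were called in CiSCs against MEFs, 41 in MSCs against MEFs, where Tlr4 lost its call (edgeR adjusted p = 0.105), and 41 in CiSCs against MSCs, where Marco gained one (0.0302). The numbers gave no pairing (correlations of deviations -0.21 for CiSCs and MEFs, 0.14 for MSCs and MEFs and -0.13 for CiSCs and MSCs), and with the CiSC numbers crossed the counts were 42 in each. The median level in MSCs was 10.1% of MEFs without MEFs1 and 14.5% without MEFs2, and in CiSCs it was 0.194% and 0.264%. The cause was not tested.

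Some genes outside the 44 changed sign, none of which passed in the comparison concerned in the main fit. Maf did so in MSCs against MEFs (-0.12 to 0.29 without either MEF library, and -0.026 with library totals). In the same comparison, in settings without 1 library, so did Csf1 (-0.094 to 0.57), Fap (-0.029 to 0.49) and Epor (-0.39 to 1.37). Csf1 and Fap passed there as higher without MEFs1. Cd5 changed sign in CiSCs against MSCs (-3.75 to 2.26), on very few reads.

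Over all genes, calls in CiSCs against MEFs numbered 6250, and 3395 to 9487 without 1 library, 3774 at an adjusted p under 0.01 and 3664 against a fold of 1.5. In MSCs against MEFs they numbered 6497, and 3516 to 9745 without 1 library, 4009 at an adjusted p under 0.01 and 3979 against a fold of 1.5. In CiSCs against MSCs they numbered 6534, and 3910 to 9369 without 1 library, 4324 at an adjusted p under 0.01 and 4282 against a fold of 1.5. With library totals alone the median log2 fold change of all genes was 0.11 in CiSCs against MEFs, -0.10 in MSCs against MEFs and 0.21 in CiSCs against MSCs, where scaled totals gave -0.002, 0.01 and -0.03. Genes with under about 10 reads in CiSCs have wide intervals, so fold changes among them could not be ranked.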
